A study of Mus musculus with 28 samples.

Results

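The autophagy and lysosome module is a list of 41 genes, of 55413 genes counted, that the transcription factor TFEB and its relatives are known to control or that carry out the same work. The members were chosen by symbol, from knowledge of the pathway, and matched to the Ensembl gene identifiers of the count files. They fall into 8 roles: 5 regulators, 4 lysosomal membrane proteins, 9 proteins of the lysosomal lumen, 6 subunits of the proton pump, 7 genes that start autophagy, 4 genes of the conjugation machinery, 5 genes of the ATG8 family and 1 cargo receptor. All 41 had enough counts to be tested.

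The RNA came from T cells pulled with magnetic beads from the spleens of male C57BL/6J mice aged 8 to 12 weeks, and each library is labelled as a separate replicate, taken here as 1 mouse. The rPS group (5 mice) received rapamycin loaded into polymersomes, which are hollow nanoscale vesicles of the polymer PEG-b-PPS, under the skin of the neck. The R group (6 mice) received free rapamycin in 0.2% CMC by the same route, and the RO group (6 mice, of which 5 were used) received the oral formulation Rapamune by gavage. All 3 rapamycin groups were given 1 mg/kg of rapamycin once a day for 11 days, and spleens were collected after that. The PS group (4 mice) received polymersomes without rapamycin, matched to rPS in volume and polymer (60 mg/kg). The NT group (7 mice) was untreated. There was no group given CMC alone or gavage alone, so R and RO differ from NT in vehicle and handling as well as in drug. The series describes its profiles as single cell, but each file held 1 column of counts for a whole sample.

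Rapamycin inhibits the kinase complex mTORC1, which sits on the lysosome and senses nutrients. Active mTORC1 phosphorylates TFEB, TFE3 and MITF and holds them in the cytoplasm; when it does not, they enter the nucleus and bind short E-box motifs in the promoters of lysosomal and autophagy genes. The lysosome breaks down what autophagy brings to it, and both are most developed in phagocytes such as macrophages, while resting T cells hold fewer lysosomes. Control of TFEB lies mostly in where the protein is, which RNA levels do not show.

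Some of the members' promoters carry the letters that TFEB-family proteins bind. RefSeq windows of build GRCm38.p6, from 250 bases before to 50 after a gene's start, were at hand for 33 members (40 windows). The E-box CACGTG, which reads the same on both strands, was in at least 1 window of 10 of the 33 members (30.3%), against 8.09% of 27025 genes. The longer form GTCACGTG, searched on both strands and containing the E-box, was in 6 of 33 (18.2%), against 2.55% of all genes, and the full CLEAR palindrome, which extends GTCACGTG by the letters AC, was in 0 of 33, against 0.37% of all genes. Many members were chosen as known TFEB targets, so shares above those of all genes may follow from that choice. Of the 12 members called in the comparison of rPS with NT below, 11 had a window and 4 of these held the E-box; of the 29 others, 22 had a window and 6 held it. The stretches around the motif in those 4 called members are shown because they are the module's link to TFEB at the level of sequence. Capitals mark CACGTG, or GTCACGTG and its reverse complement where those are present, and a match is a description of letters, not evidence of binding. The Lamp1 stretch is chr8:13159076-13159129, plus strand, and shows part of a window with 4 E-boxes. The Ctsa stretch is chr2:164833735-164833790, plus strand. The Atp6v0d1 stretch is chr8:105566038-105566093, minus strand. The Atp6v1a stretch is chr16:44139361-44139414, minus strand.
Lamp1: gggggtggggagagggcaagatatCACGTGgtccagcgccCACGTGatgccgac
Ctsa: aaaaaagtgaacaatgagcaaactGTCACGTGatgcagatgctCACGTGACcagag
Atp6v0d1: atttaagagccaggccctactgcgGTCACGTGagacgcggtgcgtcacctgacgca
Atp6v1a: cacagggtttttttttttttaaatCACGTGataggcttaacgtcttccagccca

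Libraries held 4286897 to 15696546 counts, and values are given as CPM, the counts of a gene scaled to a library of 1000000 counts. The libraries differed in how much T cell RNA they held. In 6 libraries Cd3e, a subunit of the T cell receptor complex, was under 60 CPM (9.58 to 46.9), and Lyz2, the lysozyme of macrophages and granulocytes, was at 1865 to 3721 CPM; in the other 21, Cd3e was at 76.0 to 471 CPM and Lyz2 at 18.9 to 693 CPM. These 6 are called T-cell-poor and the 21 T-cell-rich. The T-cell-poor libraries were R replicate 3, RO replicate 3 and NT replicates 3, 4, 7 and 8, so they made up 4 of the 7 NT mice and none of the rPS or PS mice. B cell markers were present in all libraries, with a summed level of 982 to 6287 CPM over 8 markers in rPS, against 3579 to 15148 CPM in NT. In the T-cell-rich NT mice the sum was 3579 to 8006 CPM. Of these markers only Ighm, an immunoglobulin gene, had a higher median in the T-cell-poor libraries, 2.83 times that of the T-cell-rich ones. For the others that ratio was 0.657 to 0.985. RO replicate 7 listed 11 of the 41 members at 0, among them Tfeb, Lamp2 and Ctsb, and was left out of the 27 libraries for all genes. With it kept for the genes above 0 there, 10 members were called in rPS against NT, all of them among the 12 called below, without Atg13 and Atp6v0a1; 20.7% of all genes were called. Malat1 and mt-Rnr2 were listed at 0 in every NT library and were abundant in all rPS, R, PS and other RO libraries, so the NT files differ from those of the treated mice in a way that cannot be told apart from treatment. The main results are given for 27 libraries and again for the 21 T-cell-rich ones, which leave 5 rPS, 5 R, 4 RO, 4 PS and 3 NT mice.

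Several lysosomal members were lower in rPS mice than in untreated mice and a pair of autophagy genes were higher, and none of these differences passed once the T-cell-poor libraries were left out. Over 27 libraries, 10 of 41 members were called lower and 2 higher in rPS against NT, by edgeR's quasi-likelihood test with Benjamini-Hochberg adjustment over 17132 genes at 0.05. In the same comparison 21.5% of all genes were called, 10.9% lower and 10.6% higher. The median log2 fold change was -0.47 over the members, with 34 of 41 below 0, and -0.01 over all genes tested. The 10 lower members were Lamp1, Lamp2, Ctsa, Hexa, Atp6v0d1, Atp6v0a1, Atp6v1a, Atp6ap1, Wipi1 and Gabarap; the 2 higher were Atg13 and Atg16l1. The calls of Lamp2, Ctsa, Atp6v0d1, Atp6ap1 and Atg16l1 held when each rPS and each NT library was left out in turn, and the other 7 were each lost in at least 1 such fit. In such bulk libraries fewer cells of a type and less RNA per cell cannot be told apart.

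The empty carrier gave calls for 2 of the 41 members, and both were lost when any 1 PS library was left out and with the replicate number as a block. Calls over all genes fell as well, to between 0.0114% and 0.0343% without 1 PS library and to 0.0175% under the block. The losses in these fits were thus not particular to these 2 members. In PS against NT, Atp6v0d1 was called lower and Atg16l1 higher, where 4.97% of all genes were called, 2.46% lower and 2.5% higher; the members' median log2 fold change was -0.57 and that of all genes -0.02. In R against NT and in RO against NT, edgeR called 0 members, where 0.665% and 0.0117% of all genes were called. DESeq2 called 19 members in PS against NT, where it called 14.4% of all genes. In R against NT, 6 members and 13.9% of all genes had an unadjusted p under 0.05, and in RO against NT, 3 members and 12.7% of all genes. DESeq2 called 0 members in R and 0 in RO, where it called 2.64% and 0.727% of all genes. Limma voom called 1 member in PS, 0 in R and 0 in RO, where it called 6.63%, 0.379% and 0.0117% of all genes. With sample quality weights, voom called 26 members in rPS, 31 in PS, 27 in R and 28 in RO against NT, where it called 35.6%, 54.9%, 41.5% and 47.2% of all genes. The members' median log2 fold change in the edgeR fit was -0.27 in R and -0.27 in RO against NT. The comparisons with NT share the same 7 untreated mice, so their resemblance is not independent evidence.

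Without the T-cell-poor libraries, edgeR called 0 of the 41 members in all 8 comparisons. In rPS against NT, 3.19% of all genes were still called, 7 members and 21.5% of all genes had an unadjusted p under 0.05, and the smallest adjusted p of a member was 0.0649, for Atp6v0d1. The members' median log2 fold change was then -0.08, with 24 of 41 below 0. In PS against NT, R against NT and RO against NT the medians were -0.20, -0.02 and -0.06, where 0.0118%, 0.241% and 0.0118% of all genes were called, and 6, 0 and 1 members had an unadjusted p under 0.05, against 14.6%, 8.96% and 8.14% of all genes. Limma voom with sample quality weights, run on the same 21 libraries after the data had been seen, called 7 members in rPS against NT, 20 in PS, 6 in R and 14 in RO against NT, where it called 21.1%, 41.5%, 29.5% and 33.6% of all genes. The members' share was below that of all genes in rPS and R, near it in RO and above it in PS. The 7 in rPS were Ctsa, Atp6v0d1, Atp6ap1, Atg16l1 and Gabarap, which are among the 12 above, and Becn1 and Atg12.

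**Figure D1:**
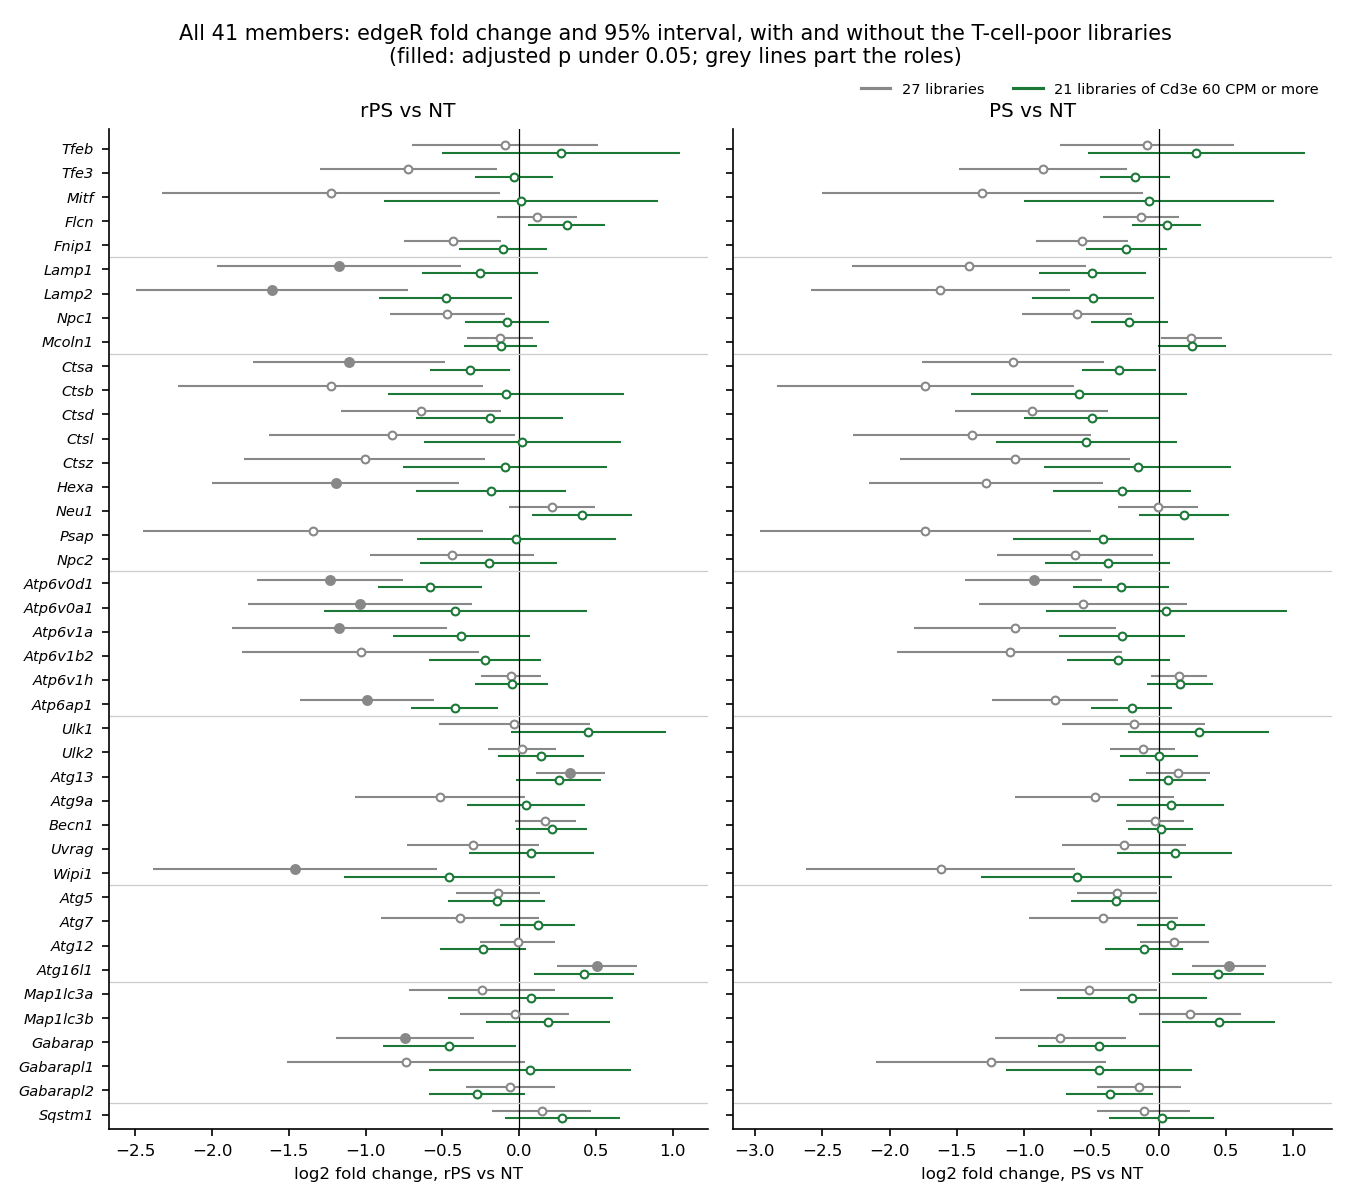
Log2 fold change of each of the 41 members (rows, grouped by role) for rPS over NT on the left and PS over NT on the right, with 95% intervals; grey is the fit of 27 libraries and green that of the 21 T-cell-rich libraries, and filled points have an adjusted p under 0.05. The 12 filled points on the left include Lamp2 at -1.61 and Atg16l1 at 0.50, and all green points are open and lie nearer to 0 for most lysosomal members.

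None of the 5 regulators was called by edgeR in any of the 8 comparisons. Tfeb, the master regulator of the module, was at 46.8, 74.2, 179.8, 28.9 and 122 CPM in the 5 rPS mice and at 90.5, 85.7, 81.9 and 121 CPM in the 4 PS mice, against a lowest of 52.2, a median of 102 and a highest of 124 CPM in NT. The rPS mice spanned both ends of all libraries, and the groups overlapped throughout. The rPS library with the lowest Tfeb also had the lowest level of the B cell gene Cd79a, 29 CPM, and the one with the highest Tfeb had 341 CPM of Cd79a; the part of B cells in the Tfeb level was not tested. Tfeb averaged 97.6 ± 18.3 CPM in R (SD, n = 6) and 97.5 ± 11.4 CPM in RO (SD, n = 5). The log2 fold change of Tfeb in rPS against NT was -0.09 ± 0.31 (SE), with a 95% interval of -0.70 to 0.51. In the 21 T-cell-rich libraries it was 0.27 ± 0.40, with an interval of -0.50 to 1.05.

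Tfe3 and Mitf encode the close relatives that bind the same motif. Tfe3 was at 46.4, 44.5, 55.5, 35 and 52.2 CPM in rPS and 48.7, 41.7, 42.7 and 44 CPM in PS, against a lowest of 42.4, a median of 77.5 and a highest of 121 CPM in NT. The rPS values lay around those of the 3 T-cell-rich NT mice, which were at 48.6, 53.4 and 42.4 CPM, and all lay below those of the 4 T-cell-poor NT mice. The log2 fold change of Tfe3 in rPS against NT was -0.72 ± 0.29 with an adjusted p of 0.0759 over 27 libraries, and -0.03 ± 0.13 over the T-cell-rich libraries. Mitf, a low-count gene here, was at 12.2, 7.77, 3.73, 1.94 and 5.85 CPM in rPS, against a lowest of 3.19, a median of 17.4 and a highest of 21.3 CPM in NT, and its difference in rPS, -1.23 ± 0.56, did not pass (adjusted p = 0.112). Over the T-cell-rich libraries the Mitf difference was 0.01 ± 0.46.

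Flcn and Fnip1 encode folliculin and its partner, which together act on the Rag GTPases that bring TFEB to the lysosome for phosphorylation. Flcn was at 73.5, 71.9, 97, 77.9 and 75.2 CPM in rPS, against a lowest of 55.3, a median of 68.8 and a highest of 91.7 CPM in NT, and its log2 fold change was 0.12 ± 0.13 over 27 libraries and 0.31 ± 0.13 over the T-cell-rich ones (adjusted p = 0.55 and 0.164). Fnip1 was at 56.3, 52.5, 31.7, 57 and 44.8 CPM in rPS and 44.5, 51.1, 48.9 and 40.2 CPM in PS, against a lowest of 49.6, a median of 61.2 and a highest of 78.5 CPM in NT. Its log2 fold change was -0.43 ± 0.16 in rPS (adjusted p = 0.055) and -0.57 ± 0.17 in PS (adjusted p = 0.0523) against NT, both just outside the threshold.

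**Figure D2:**
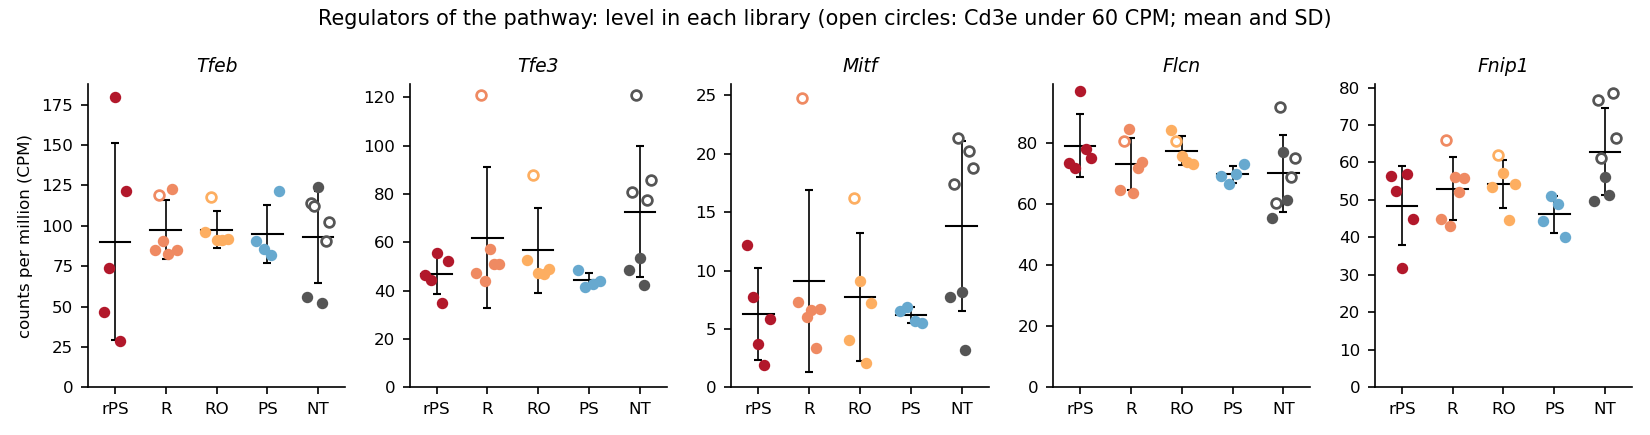
Level of the 5 regulators in CPM (vertical axis) in each library of the 5 groups, with mean and SD as bar and whiskers; open circles are T-cell-poor libraries, and RO replicate 7 is not shown. For Tfe3, Mitf and Fnip1 the open circles lie above the filled ones, with Tfe3 at 77.5 to 121 CPM in the T-cell-poor libraries, while Tfeb spreads most within rPS, where it ran between 28.9 and 179.8 CPM.

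Of the 4 lysosomal membrane members, Lamp1 and Lamp2 were called lower in rPS than in NT. Lamp1 and Lamp2 encode the most abundant glycoproteins of the lysosomal membrane. Lamp1 was at 172, 185, 107, 89.3 and 118 CPM in rPS and at 108, 127, 114 and 127 CPM in PS, against a lowest of 139.7, a median of 269.7 and a highest of 538 CPM in NT. The 4 highest NT values came from the T-cell-poor mice, and the T-cell-rich NT mice, at 183, 139.7 and 155 CPM, lay within the rPS range. Lamp1 fell in rPS with a log2 fold change of -1.17 ± 0.41 (adjusted p = 0.0416), and over the T-cell-rich libraries the difference was -0.26 ± 0.19 (adjusted p = 0.464). Lamp2 was at 70.9, 65.6, 30.1, 33.7 and 39.6 CPM in rPS and at 49.8, 55.3, 43.7 and 49.8 CPM in PS, against a lowest of 47.1, a median of 161 and a highest of 217 CPM in NT. The rPS range reached into that of the T-cell-rich NT mice and lay below all 4 T-cell-poor ones. Lamp2 had the most negative fold change of all members in rPS, -1.61 ± 0.45 (adjusted p = 0.0159), and -0.48 ± 0.22 over the T-cell-rich libraries (adjusted p = 0.216), where the NT mice were at 67.5, 89.1 and 47.1 CPM. Averages for Lamp2 were 77.5 ± 42.6 CPM in R (SD, n = 6) and 74 ± 55.6 CPM in RO (SD, n = 5); without replicate 3 of each they were 60.4 ± 9.50 CPM in R (n = 5) and 49.3 ± 6.59 CPM in RO (n = 4).

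Npc1 and Mcoln1 were not called by edgeR in any of the 8 comparisons. Npc1 carries cholesterol out of the lysosome, and its log2 fold change in rPS against NT was -0.47 ± 0.19 (adjusted p = 0.0773). Mcoln1, the lysosomal calcium channel, was at 54.2, 42.8, 55.8, 52.9 and 55 CPM in rPS and 70.3, 81.7, 66.8 and 62.9 CPM in PS, against a lowest of 42, a median of 52.8 and a highest of 71.7 CPM in NT. All 5 rPS values lay below all 4 PS values. In rPS against PS, where 0 members were called and 0.0817% of all genes were, Mcoln1 had the smallest unadjusted p of the members, 0.00661, with a log2 fold change of -0.37 ± 0.12 and an adjusted p of 0.575.

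Of the 9 members of the lysosomal lumen, Ctsa and Hexa were called lower in rPS. Ctsa, cathepsin A, is a peptidase that also protects the sialidase Neu1. Ctsa was at 114, 133, 143, 103 and 114 CPM in rPS and at 116, 132, 137 and 134 CPM in PS, against a lowest of 137, a median of 259.6 and a highest of 415 CPM in NT. The rPS range met the NT range at its lower end, where the T-cell-rich NT mice were at 177, 143 and 137 CPM. The log2 fold change of Ctsa was -1.11 ± 0.32 (adjusted p = 0.0182) over 27 libraries and -0.32 ± 0.13 (adjusted p = 0.172) over the T-cell-rich ones. Hexa, a subunit of the hexosaminidase that degrades gangliosides, was at 76.7, 99.8, 49.9, 30.0 and 61.4 CPM in rPS and 62.1, 57, 53 and 77 CPM in PS, against a lowest of 52, a median of 141 and a highest of 250.1 CPM in NT. The groups overlapped, with the T-cell-rich NT mice, at 71.2, 97.4 and 52 CPM, inside the rPS range. Its difference was -1.19 ± 0.41 (adjusted p = 0.0398) and, over the T-cell-rich libraries, -0.18 ± 0.25 (adjusted p = 0.716).

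The other 7 lumen members did not pass edgeR's test in any of the 8 comparisons. Ctsd, the aspartic protease cathepsin D, was at 363, 397, 161, 193 and 229 CPM in rPS and 219, 224, 217 and 246 CPM in PS, against a lowest of 218, a median of 361 and a highest of 574 CPM in NT. Its log2 fold change was -0.64 ± 0.27 in rPS (adjusted p = 0.0828) and -0.94 ± 0.29 in PS (adjusted p = 0.0526). The cysteine proteases Ctsb, Ctsl and Ctsz had log2 fold changes of -1.23, -0.83 and -1.01 in rPS over 27 libraries, and -0.09, 0.02 and -0.09 over the T-cell-rich libraries. Psap, the precursor of the saposins that help lipid breakdown, was at 2152, 2355, 1482, 521 and 1555 CPM in rPS, against a lowest of 1042, a median of 4406 and a highest of 7779.9 CPM in NT, with a log2 fold change of -1.34 ± 0.57 (adjusted p = 0.0862) and -0.02 ± 0.33 over the T-cell-rich libraries. Npc2, a cholesterol-binding protein, had a log2 fold change of -0.44 ± 0.27 in rPS against NT. Neu1, the sialidase, had a positive log2 fold change, 0.21 ± 0.14 over 27 libraries and 0.41 ± 0.16 over the T-cell-rich ones (adjusted p = 0.156).

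Of the 6 members of the vacuolar proton pump, which acidifies the lysosome, 4 were called lower in rPS, and they include the member with the smallest p. Atp6v0d1 (ENSMUSG00000013160.8), a subunit of the membrane-bound part, was at 22.4, 35.9, 29.4, 23.7 and 29.2 CPM in rPS and 33.7, 34.8, 38 and 38.9 CPM in PS, against a lowest of 32.2, a median of 71.3 and a highest of 84.8 CPM in NT. Only the highest rPS value lay above the lowest NT value. Atp6v0d1 fell in both polymersome groups, with log2 fold changes of -1.23 ± 0.24 in rPS (adjusted p = 0.00212) and -0.93 ± 0.26 in PS (adjusted p = 0.0455). The PS call of Atp6v0d1 was lost in 8 of 11 fits that left out 1 library, each PS library among them, under the replicate block and without the low-count filter. At most 0.137% of all genes were called in PS against NT in any of these fits. The call was also lost where more genes passed. These were the fit of only PS and NT, with 12.3% of all genes called, and limma voom without quality weights, with 6.63%. Atp6v0d1 averaged 41 ± 5.20 CPM in R (SD, n = 6) and 48.3 ± 14.2 CPM in RO (SD, n = 5), with log2 fold changes against NT of -0.66 ± 0.22 and -0.43 ± 0.24 that did not pass. Over the T-cell-rich libraries, where the NT mice were at 47.2, 32.2 and 45.8 CPM, the rPS difference was -0.58 ± 0.17 with an unadjusted p of 0.00311 and an adjusted p of 0.0649.

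Atp6ap1, an accessory subunit needed to assemble the pump, was at 89.6, 101, 73.2, 58.3 and 83.6 CPM in rPS and 94, 98.4, 93.5 and 109 CPM in PS, against a lowest of 100.02, a median of 169 and a highest of 205 CPM in NT. The ranges of rPS and NT touched at 1 mouse of each. Atp6ap1 fell in rPS with a log2 fold change of -0.99 ± 0.22 (adjusted p = 0.00472), and over the T-cell-rich libraries the difference was -0.42 ± 0.15 (adjusted p = 0.105). Atp6v1a, the catalytic subunit that splits ATP, was at 64.9, 57.9, 23.8, 26.8 and 35.9 CPM in rPS and 48.4, 49.1, 45.5 and 44.6 CPM in PS, against a lowest of 48.5, a median of 84 and a highest of 149.9 CPM in NT. The rPS mice lay below and among the T-cell-rich NT mice, which were at 48.6, 67.4 and 48.5 CPM. Its log2 fold change in rPS was -1.17 ± 0.36 (adjusted p = 0.0238), and -0.38 ± 0.23 over the T-cell-rich libraries. Atp6v0a1, a subunit of the proton channel, was at 42.3, 48.7, 95.6, 8.67 and 58.3 CPM in rPS and 78, 69, 67.5 and 79.5 CPM in PS, against a lowest of 35.4, a median of 121 and a highest of 131 CPM in NT. The rPS mice differed from each other more than 10-fold for this gene, and it had the largest adjusted p of the 12 calls, at -1.04 ± 0.37 (adjusted p = 0.0485). The log2 fold change of Atp6v1b2 was -1.03 ± 0.39 (adjusted p = 0.0602) and that of Atp6v1h -0.05 ± 0.10.

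**Figure D3:**
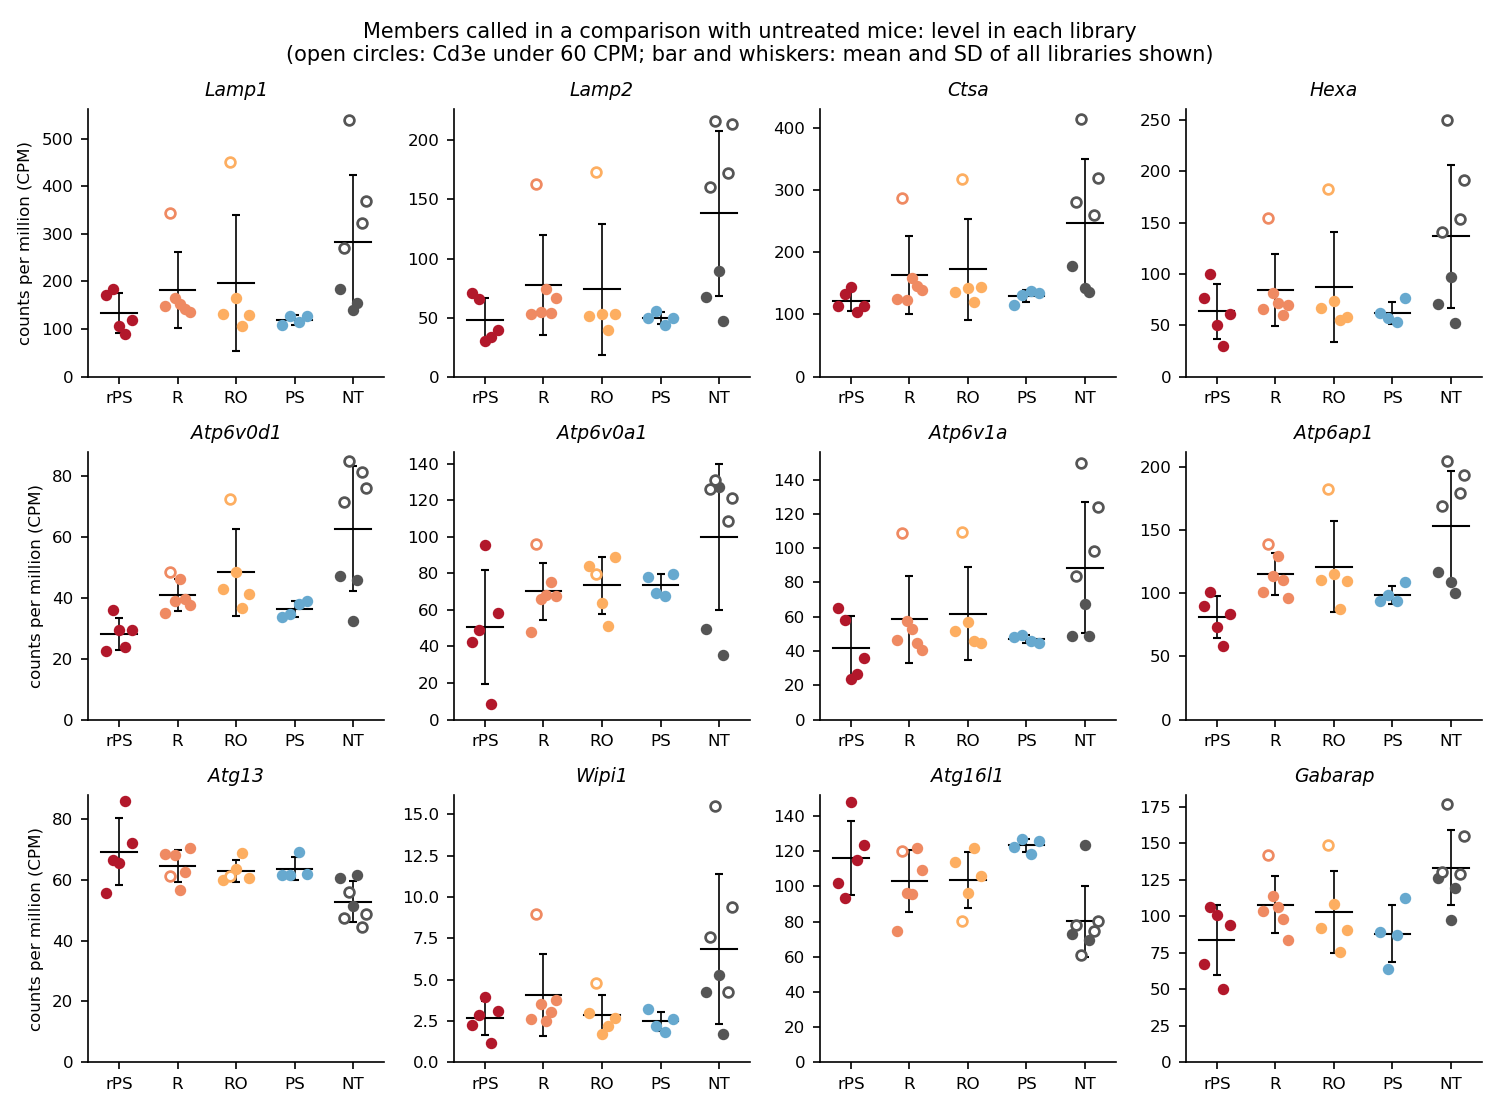
Level in CPM (vertical axis, from 0) of the 12 members called in a comparison with NT, in each library of the 5 groups, with mean and SD as bar and whiskers; open circles are T-cell-poor libraries, and RO replicate 7 is not shown. For Lamp2 the open circles stand at 161 to 217 CPM and the filled ones at 30.1 to 89.1 CPM, while for Atg16l1 the NT mice lie low except 1 at 123 CPM.

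The 7 genes that start autophagy held 1 called lower and 1 called higher. Atg13, a subunit of the ULK1 kinase complex that mTORC1 restrains, was at 55.7, 66.6, 65.5, 85.8 and 72.1 CPM in rPS and 61.6, 61.6, 69.1 and 61.8 CPM in PS, against a lowest of 44.4, a median of 51.2 and a highest of 61.4 CPM in NT. Of the 5 rPS mice, 4 lay above all NT mice. Atg13 rose in rPS by 0.33 ± 0.11 on the log2 scale (adjusted p = 0.0396), and over the T-cell-rich libraries, with NT at 60.6, 51.2 and 61.4 CPM, the difference was 0.26 ± 0.14 (adjusted p = 0.298). Wipi1, which binds the lipid that marks the forming autophagosome, was at 2.24, 2.89, 3.97, 1.17 and 3.12 CPM in rPS and 3.22, 2.19, 1.86 and 2.62 CPM in PS, against a lowest of 1.72, a median of 5.30 and a highest of 15.5 CPM in NT. The lowest NT mouse lay within the rPS range and the other NT mice lay above it. Wipi1 was among the members with the fewest counts, and it fell in rPS with a log2 fold change of -1.46 ± 0.47 (adjusted p = 0.0307); over the T-cell-rich libraries the difference was -0.45 ± 0.35. Ulk1, the kinase itself, was at 39.7, 38.5, 104, 53.1 and 64.9 CPM in rPS, against a lowest of 38.5, a median of 49.9 and a highest of 93.2 CPM in NT, with a log2 fold change of -0.03 ± 0.25 over 27 libraries and 0.45 ± 0.26 over the T-cell-rich ones (adjusted p = 0.32). Its relative Ulk2, the lipid scramblase Atg9a, and Becn1 and Uvrag, which belong to the lipid kinase complex, had log2 fold changes of 0.02, -0.52, 0.17 and -0.30 in rPS over 27 libraries, and none passed.

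Of the 4 genes of the conjugation machinery, which attaches ATG8 proteins to the membrane, Atg16l1 was higher in both polymersome groups. Atg16l1 (ENSMUSG00000026289.16), which directs that attachment, was at 102, 93.4, 148, 115 and 123 CPM in rPS and 122, 127, 118 and 126 CPM in PS, against a lowest of 61.2, a median of 74.7 and a highest of 123 CPM in NT. All 9 rPS and PS values lay above 6 of the 7 NT values, and the seventh NT mouse, replicate 5, was at 123 CPM. Its 8 B cell markers summed to 8006 CPM, with 4503 CPM from Ighm, inside the NT range of 3579 to 15148 CPM. In the NT mouse at 15148 CPM, Ighm alone was at 12989 CPM. Cd79a was at 293 CPM in NT replicate 5, the highest of the NT mice, where the others were at 203 to 286 CPM. The part of B cells in the Atg16l1 value was not tested. Atg16l1 rose in rPS by 0.50 ± 0.13 (adjusted p = 0.0116) and in PS by 0.52 ± 0.14 (adjusted p = 0.0431) on the log2 scale. Its PS call was lost in 8 of 11 fits that left out 1 library, namely any PS library or NT replicate 3, 4, 7 or 8, under the replicate block and without the low-count filter. No more than 0.137% of all genes were called in PS against NT in any of these fits. The 6 T-cell-poor libraries overlapped the T-cell-rich ones for Atg16l1, at 61.2 to 120.1 CPM against 69.5 to 148 CPM. Their median was lower, at 79.3 against 114 CPM, and R replicate 3 was the highest of them. Over the T-cell-rich libraries the rPS difference of Atg16l1 was 0.42 ± 0.17 (adjusted p = 0.149). It averaged 103 ± 17.8 CPM in R (SD, n = 6) and 104 ± 16 CPM in RO (SD, n = 5), with log2 fold changes against NT of 0.36 ± 0.13 (adjusted p = 0.194) and 0.33 ± 0.13 (adjusted p = 0.327). The log2 fold changes of Atg5, Atg7 and Atg12 in rPS were -0.14, -0.38 and -0.01, and none passed.

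Of the 5 ATG8-family genes, whose products coat the autophagosome, Gabarap was called lower in rPS. Gabarap was at 67.5, 106, 101, 50.1 and 93.8 CPM in rPS and 89.2, 64.1, 87.1 and 112 CPM in PS, against a lowest of 97.3, a median of 129 and a highest of 177 CPM in NT. The 2 highest rPS mice lay above the lowest NT mouse and below the others. The log2 fold change of Gabarap was -0.75 ± 0.23 (adjusted p = 0.0247), and -0.45 ± 0.22 over the T-cell-rich libraries (adjusted p = 0.237). Map1lc3b, the LC3 gene most used as an autophagy marker, was at 78.4, 80.7, 159.6, 118 and 124 CPM in rPS and 138, 127, 160.1 and 139 CPM in PS, against a lowest of 89.3, a median of 107 and a highest of 138 CPM in NT. The rPS mice spread over the whole NT range and past both of its ends. Its log2 fold change in rPS was -0.03 ± 0.18, with an interval of -0.39 to 0.33. Sqstm1, which encodes the cargo receptor p62, was at 197, 248, 275, 149 and 234 CPM in rPS, against a lowest of 157, a median of 198 and a highest of 224 CPM in NT, with a log2 fold change of 0.15 ± 0.16 and an interval of -0.17 to 0.47. Map1lc3a, Gabarapl1 and Gabarapl2 had log2 fold changes of -0.24, -0.74 and -0.06 and did not pass.

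The same members in the free and the oral rapamycin group were mostly set apart by 1 library of each, replicate 3, which was T-cell-poor. Lamp1 had a lowest of 136, a median of 151 and a highest of 343 CPM in R, and was at 131, 450.3, 165, 107 and 130.4 CPM in the 5 RO mice. Ctsa had a lowest of 124, a median of 143 and a highest of 287 CPM in R, and was at 137, 317, 143, 121 and 145 CPM in RO. Hexa had a lowest of 60.3, a median of 70.7 and a highest of 154 CPM in R, and was at 67.4, 183, 73.5, 55.2 and 57.9 CPM in RO. In all 3 genes the highest R mouse and the highest RO mouse were the T-cell-poor ones. Atp6v1a had a lowest of 40.7, a median of 49.5 and a highest of 109 CPM in R, and was at 51.9, 109, 57.1, 46 and 44.7 CPM in RO. Atp6ap1 had a lowest of 96.5, a median of 112 and a highest of 139 CPM in R, and was at 110.3, 182, 115, 87.2 and 109.5 CPM in RO. Atp6v0a1 had a lowest of 47.7, a median of 68 and a highest of 96.2 CPM in R, and was at 83.9, 79.4, 64, 51.2 and 89.1 CPM in RO. Atp6v0a1 was the exception among these pump subunits, with its highest RO value in a T-cell-rich mouse. Gabarap had a lowest of 83.5, a median of 105 and a highest of 142 CPM in R, and was at 92.1, 149, 109, 75.8 and 90.5 CPM in RO. Wipi1 had a lowest of 2.53, a median of 3.30 and a highest of 8.99 CPM in R, and was at 2.97, 4.80, 1.71, 2.23 and 2.7 CPM in RO. Atg13 had a lowest of 56.6, a median of 65.3 and a highest of 70.3 CPM in R, and was at 59.9, 61.1, 63.5, 68.9 and 60.5 CPM in RO. Atg13 was the only one of these 9 members whose T-cell-poor R and RO mice both lay inside the range of the others, and none of the 9 passed edgeR's test in R or RO against NT.

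The rapamycin formulations were compared with each other and with the empty carrier directly. EdgeR called 0 members in rPS against PS, rPS against R, rPS against RO and R against RO, where 0.0817%, 0.0117%, 0.0175% and 0% of all genes were called. Unadjusted p-values under 0.05 were seen for 1, 2, 2 and 0 members and for 4.97%, 11.1%, 8.11% and 2.94% of all genes, and DESeq2 and limma voom with quality weights each called 0 in all 4. The members' median log2 fold changes were 0.09, -0.18, -0.17 and 0.00, and over the T-cell-rich libraries they were 0.09, -0.06, 0.03 and 0.06; in those libraries 0.241%, 0.00588%, 0.0471% and 0% of all genes were called, and 2, 3, 3 and 0 members had an unadjusted p under 0.05, against 8.42%, 12.4%, 6.92% and 4.52% of all genes. These misses do not show that the formulations act alike. For Atp6v0d1 the log2 difference of rPS from R was -0.57 with an interval of -1.06 to -0.09 (adjusted p = 0.413). The Atp6v0d1 difference from RO was -0.80 with an interval of -1.31 to -0.30 (adjusted p = 0.358), and over the T-cell-rich libraries the 2 differences were -0.48 and -0.53. Of the 5 rPS values of Atp6v0d1, 4 lay below all R values and all 5 lay below all RO values. For Atp6ap1 the differences of rPS from R and RO were -0.54 with an interval of -0.99 to -0.10 and -0.60 with an interval of -1.07 to -0.14. Neither Atp6ap1 difference passed after adjustment, and the intervals here are not adjusted for the number of genes tested. For Tfeb the interval of rPS against R was -0.77 to 0.48, and that against PS was -0.70 to 0.68.

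**Figure D4:**
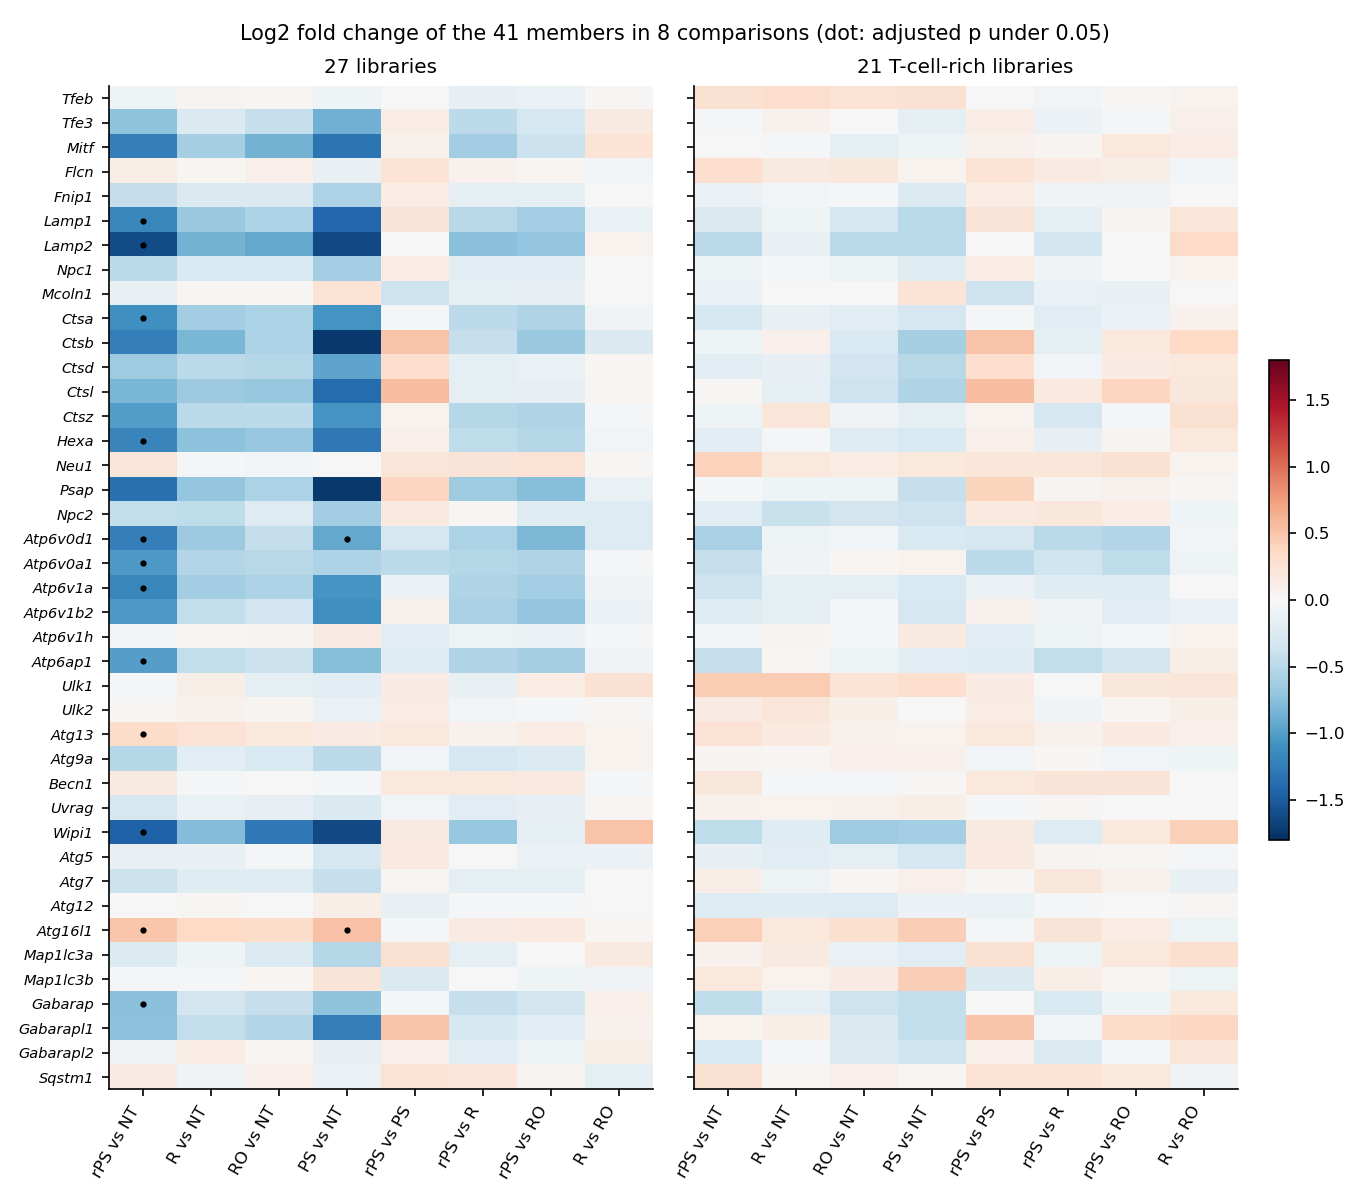
Log2 fold change of the 41 members (rows) in the 8 comparisons (columns), over 27 libraries on the left and over the 21 T-cell-rich libraries on the right; blue is lower and red higher in the first-named group, and dots mark an adjusted p under 0.05. The dots are the 12 calls of rPS and the 2 of PS against NT on the left, and the right panel has none.

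Many members were higher in the libraries with little T cell RNA. All 6 T-cell-poor libraries were above all 21 T-cell-rich ones for 18 of the 41 members and below for 0, where 7.14% of 16186 genes of mean CPM at least 1 lay above and 6.10% below. These 18 were spread unevenly over the roles. They included 3 of 5 regulators, 3 of 4 membrane proteins, 5 of 9 lumen proteins, 4 of 6 pump subunits, 0 of 7 autophagy starters, 1 of 4 conjugation genes, 2 of 5 ATG8 genes and 0 of 1 cargo receptor. Psap was at 4406 to 7779.9 CPM in the T-cell-poor libraries and at 521 to 2647 CPM in the T-cell-rich ones. Ctsb was at 889.8 to 1693 CPM in the T-cell-poor libraries and at 134 to 716 CPM in the T-cell-rich ones. Lamp2 was at 161 to 217 CPM in the T-cell-poor libraries and at 30.1 to 89.1 CPM in the T-cell-rich ones.

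The same libraries were high in monocyte, macrophage and neutrophil markers, and less distinctly in red pulp macrophage markers. All T-cell-poor libraries were above all T-cell-rich ones for 7 of 9, 5 of 8 and 0 of 9 of these markers, against 7.14% of genes. The red pulp markers had a median ratio of T-cell-poor to T-cell-rich medians of 2.13. They summed to 148 to 2714 CPM in rPS and 716 to 2563 CPM in NT. The summed level of 9 monocyte and macrophage markers was 110.3 to 1490.5 CPM in rPS, 929 to 5692 CPM in R, 484 to 6593 CPM in RO, 529 to 851 CPM in PS and 502 to 7378 CPM in NT, and 502 to 1449 CPM in the 3 T-cell-rich NT mice. Neutrophil markers (8 genes) summed to 4.92 to 51.6 CPM in rPS, against 17.8 to 2993 CPM in NT. T cell markers (10 genes) summed to 873 to 2471 CPM in rPS, against 183 to 3482 CPM in NT. No marker of these lists was at 0 throughout any group. Even among the T-cell-rich libraries Psap and Lyz2 were both lowest in 1 rPS mouse, replicate 5, with 521 CPM of Psap and 18.9 CPM of Lyz2, and the part of other cell types in the differences among those libraries was not tested.

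**Figure D5:**
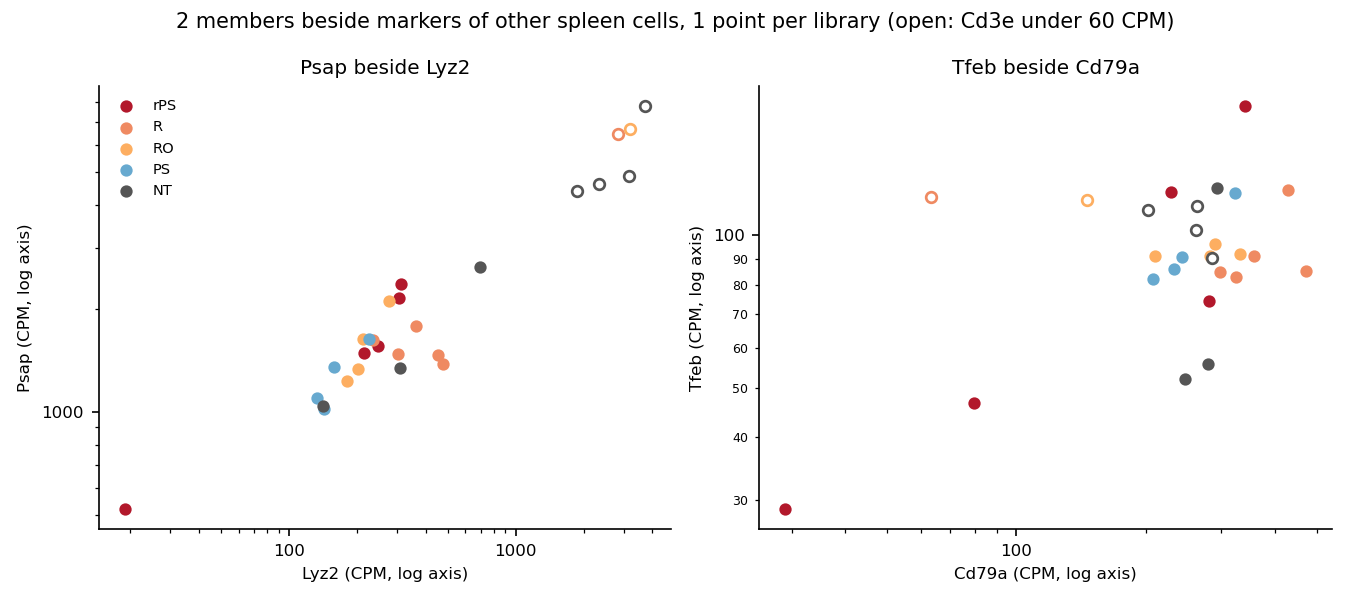
Psap against the macrophage and granulocyte gene Lyz2 (left) and Tfeb against the B cell gene Cd79a (right), in CPM on log axes, 1 point per library coloured by group and open where Cd3e was under 60 CPM; RO replicate 7 is not shown. On the left the 6 open points stand at 4406 to 7779.9 CPM of Psap above the rest; on the right the open points mix with the others along the Tfeb axis.

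Other genes of the same pathways were taken from lists of lysosomal and autophagy genes outside the module. The lysosomal genes called were mostly lower. The autophagy genes called were mostly higher, but the autophagy list as a set had a median log2 fold change of 0.01. In rPS against NT, 26 of 98 such genes tested were called lower and 9 higher over 27 libraries, against 10.9% and 10.6% of all genes; the share called higher was near that of all genes. Of 34 other lysosomal enzymes, 16 were called lower and 0 higher, among them Arsb at -0.66 ± 0.13 and Tpp1 at -0.64 ± 0.16 on the log2 scale. Of 13 other membrane proteins, Ctns (-0.97 ± 0.25), Cd68 (-1.86 ± 0.57) and Laptm5 (-0.56 ± 0.19) were lower and Tpcn1 (0.52 ± 0.15) higher; Cd68 is also a macrophage marker. Of 11 other pump subunits tested, 4 were lower and 0 higher, namely Atp6v1f (-0.79 ± 0.20), Atp6v0e (-0.73 ± 0.19), Atp6v1g1 (-0.66 ± 0.22) and Atp6ap2 (-0.81 ± 0.28).

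Autophagy genes outside the module had 6 of 29 called higher and 1 lower in rPS. They included Atg2b, a lipid transfer protein, at 0.47 ± 0.10, the ATG8 proteases Atg4d at 0.40 ± 0.11 and Atg4b at 0.31 ± 0.09, and the lower Sh3glb1 at -0.74 ± 0.21. Of all 29, 15 had a log2 fold change above 0 and 14 below. All 6 called higher had lower medians in the T-cell-poor than in the T-cell-rich libraries. These ran from 100 against 409 CPM for Tecpr1 to 114 against 125 CPM for Wipi2. Sh3glb1 went the other way, at 159 against 97.3 CPM. The T-cell-poor libraries were mostly NT and held no rPS library. Genes called in rPS against NT were thus likely to show these directions, which are not separate evidence. Of 11 genes of the Rag and Ragulator list, which also holds Fnip2 and Tfec, Rragb (0.90 ± 0.24) and Rragd (0.68 ± 0.19) were higher, and Lamtor5 (-0.93 ± 0.29) and Rragc (-0.44 ± 0.16) lower. The products of Rragb, Rragc and Rragd are Rag GTPases that place mTORC1 and TFEB at the lysosome. In PS against NT, 10 of the 98 were called lower and 3 higher, against 2.46% and 2.5% of all genes. Over the T-cell-rich libraries, 2 of 97 were called in rPS against NT, a share below the 3.19% of all genes, and both were lower, among them Atp6v1f at -0.92 ± 0.21 (adjusted p = 0.026). In the other 3 comparisons with NT, edgeR called 0 of the 97 over those libraries.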

How the data were processed

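The deposited values are expected counts per gene, which need not be whole, made by the authors with 1 file per library. Per the submitters' processing notes, Trimmomatic 0.39, STAR 2.7.5a, Cuffdiff, Cufflinks 2.1.1 and build GRCm39 were used; which tool counted, and whether by strand, is not stated in the labels. Of 55413 gene identifiers, 52082 were paired with a symbol. CPM were computed from each file's total.

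Counts were rounded to whole numbers and tested with edgeR 4.0.16 (TMM scaling, filterByExpr, robust quasi-likelihood fit of all 5 groups, two-sided, R 4.3.3) over 27 libraries, after checks on simulated data. In the simulated rPS against NT comparison, 53% of 2-fold and 81% of 4-fold changes were recovered, with 7 false calls. A member that was not called may therefore still differ by 2-fold. P-values were Benjamini-Hochberg adjusted over all genes within each of 8 comparisons and called at 0.05. The labels do not say whether mice were pooled or housed apart, so p-values measure the spread between these libraries. Counting precision is limited by 4286897 to 15696546 counts a library; 3 counts were taken as the floor. No length was used, so levels are compared between libraries and not between genes. Alternatives used DESeq2 1.42.0 and limma 3.58.1. The members, gene lists and tests were chosen with earlier results of these data known. Values per library are given for the 12 members called in any comparison, group levels always for Tfeb, Tfe3, Mitf, Flcn, Lamp1, Ctsd, Sqstm1, Map1lc3b and Ulk1, and up to 4 called genes of smallest p from each other list. Further members, Cd79a and Ighm were named after their values were seen. Some genes are not reported here.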

Additional observations from a re-analysis of the deposited data

Results flagged for a closer look

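Over 20 members and 5 groups, 18 of 100 sets of values had 1 library whose gap to the nearest of the others was large for the group's range by Dixon's criterion at 95%; chance gives about 1 in 20. Of these, 8 were in R replicate 3 and 7 in RO replicate 3, both T-cell-poor, with 9.58 and 46.9 CPM of Cd3e and 2827 and 3195 CPM of Lyz2; the part of other cells in these values was not tested. In R replicate 3 the high values were Lamp1 at 343 CPM, Lamp2 at 163 CPM, Ctsa at 287 CPM, Hexa at 154 CPM, Atp6v1a at 109 CPM, Wipi1 at 8.99 CPM, Tfe3 at 121 CPM and Mitf at 24.8 CPM. The other 5 R mice reached at most 165 CPM for Lamp1 and 74.4 CPM for Lamp2. In RO replicate 3 they were Lamp1 at 450.3 CPM, Lamp2 at 173 CPM, Ctsa at 317 CPM, Hexa at 183 CPM, Atp6v1a at 109 CPM, Tfe3 at 87.8 CPM and Tfeb at 118 CPM. The other 4 RO mice reached at most 145 CPM for Ctsa and 96.2 CPM for Tfeb.

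The remaining 3 were in T-cell-rich libraries. Atg16l1 was at 123 CPM in NT replicate 5, where the other 6 NT mice were at 61.2 to 80.3 CPM. Flcn was at 97.0 CPM in rPS replicate 4, where the other 4 rPS mice were at 71.9 to 77.9 CPM. Atg13 was at 69.1 CPM in PS replicate 4, where the other 3 PS mice were at 61.6 to 61.8 CPM.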

How the results depend on the processing

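None of the 14 called log2 fold changes changed sign under any alternative. Values that were not called did: without the T-cell-poor libraries the member median of rPS against RO was 0.03, where it was -0.17 over 27 libraries, and in rPS against NT Tfeb was at 0.27, Mitf at 0.01, Ctsl at 0.02 and Ulk1 at 0.45, where all 4 were below 0 over 27 libraries. With 1 library left out that median ranged from -0.24 to 0.03, and that of R against RO from -0.16 to 0.21. Without the T-cell-poor libraries, 0 of the 12 calls of rPS against NT and 0 of the 2 of PS against NT were left. Limma voom with sample quality weights called 26 members in rPS, 27 in R, 28 in RO and 31 in PS against NT. It called 35.6%, 41.5%, 47.2% and 54.9% of all genes there. Without the T-cell-poor libraries it called 7, 6, 14 and 20 members and 21.1%, 29.5%, 33.6% and 41.5% of all genes. Without weights, over 27 libraries, it called 8 members in rPS and 1 in PS, and 15.4% and 6.63% of all genes. These last 2 settings were chosen after seeing the data. Over 27 libraries the quality weights of the T-cell-poor NT replicates 3, 4, 7 and 8 were 1.71, 0.345, 2.31 and 1.74. Those of the T-cell-rich NT replicates 2, 5 and 6 were 0.286, 0.379 and 0.172. The T-cell-poor replicate 3 of R and of RO had weights of 0.182 and 0.19. Against NT, DESeq2 called 19 members in PS, and 14.4% of all genes. EdgeR without a low-count filter called 8 in rPS and 0 in PS, and 7.73% and 0.137% of all genes. Fits of only the groups compared called 4 in rPS and 9 in PS, and 7.07% and 12.3% of all genes. The replicate block gave 4 calls in rPS and 0 in PS, where 10.6% and 0.0175% of all genes were called. Same-numbered libraries correlated at a median of 0.04 over 38 pairs, and 7 of 27 libraries correlated best with their own number. The labels give the numbers no shared source. The causes were not tested.

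With 1 library left out, calls numbered 5 to 18 in rPS, 0 to 2 in R and 0 to 17 in PS against NT, and 0 in the other comparisons. The share of all genes called moved too, at 12.4% to 27.3% in rPS, 0.146% to 3.28% in R and 0.0114% to 16.9% in PS. For rPS the count fell to 5 with rPS replicate 5 left out (13.8% of all genes) and 6 with rPS replicate 7 (12.4%) or NT replicate 4 (16%) out. It was 7 with NT replicate 8 out (15.3%) and 18 with NT replicate 6 out (26.1%). For PS it was 0 with any 1 PS library or NT replicate 3, 4, 7 or 8 out (at most 0.111% of all genes). It was 10 with NT replicate 2 out (7.63%) and 17 with NT replicate 5 (16.9%) or 6 (13.7%) out. For R it was 2 without NT replicate 5 (2.71% of all genes). The call of Gabarap was lost without rPS replicate 1 or 5 or NT replicate 4, that of Atp6v1a without rPS replicate 4, 5 or 7 or NT replicate 4, and that of Wipi1 without rPS replicate 1, 5 or 7 or NT replicate 4 or 8. Lamp1 was lost without rPS replicate 4, 5 or 7 or any 1 T-cell-poor NT library, Hexa also without rPS replicate 1, Atg13 without rPS replicate 4, 5 or 7 or NT replicate 3, 5, 7 or 8, and Atp6v0a1 in 9 of 12 fits. Depth limits Wipi1 and Map1lc3a most, and all NT files list Malat1 and mt-Rnr2 at 0.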
